A study of Arabidopsis thaliana with 21 samples.

Results

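The genes described are the 150 Arabidopsis genes that were low in ada2b-c plants and stood highest above that low level in both double mutants out of 32548 genes measured. They were chosen from the measured values. For each gene the difference from wild type is given as log2(genotype mean + 1) minus log2(Col-0 mean + 1). A gene qualified with a Col-0 mean of at least 30, a difference of -1 or lower in ada2b-c, and differences of -0.5 or higher in the single mutants ada2a and spc. Of 17913 genes with the required Col-0 mean, 4379 met these thresholds. The gain in a double mutant is its difference from Col-0 minus that of ada2b-c. Genes were ranked by the smaller of their 2 gains and the first 150 taken, leaving 4229 qualifying genes below the limit. The values of ada2b-c, ada2a, spc and both double mutants against Col-0, and of the double mutants against ada2b-c, therefore chose the genes and are described without a test.

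The RNA-seq libraries came from 30-day-old Arabidopsis thaliana plants, whose tissue the labels call seedlings, with 3 libraries for each of 7 genotypes. Col-0 is the wild type, the single mutants are gcn5, ada2a, ada2b-c and spc, and ada2b-c was combined with ada2a (ada2b-cada2a) and with spc (ada2b-cspc). All plants spent 12 days on plates and then grew in soil at 22 °C under days of 16 h light and 8 h dark, and no treatment is named. The labels do not describe the mutations. They also do not say whether each library had its own plants, so a p-value reflects only how far these libraries spread, and that spread may be technical. The main fit shares the spread of a gene across all 7 genotypes, so a p-value or SE also draws on libraries outside the groups compared.

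GCN5 is a histone acetyltransferase that works inside multi-subunit co-activator complexes. ADA2B is the adaptor subunit of the SAGA complex, which plants share with yeast and animals, while ADA2A and SPC belong to a GCN5 complex found in plants. The comparison of the double mutants with ada2b-c asks what mutation of the plant-specific complex does in plants that already carry ada2b-c. Many of the genes named below belong to the auxin growth pathway. YUC flavin monooxygenases make auxin, Aux/IAA proteins repress auxin-responsive transcription and are themselves made in response to auxin, small auxin up RNA (SAUR) proteins promote cell expansion, and expansins and xyloglucan endotransglucosylases (XTH) loosen or remodel the cell wall.

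The auxin and growth genes lead the account that follows, so the DNA before 7 of them is shown first. Each line holds the 250 bases upstream of the annotated start of the gene, 5′ to 3′ on its own strand, from the RefSeq TAIR10.1 genome. Capitals mark the hexamer CACATG or its reverse CATGTG (the PBE-box, a site bound by phytochrome-interacting factors), CACGTG (the G-box) and TGTCTC or GAGACA (an auxin response element). SAUR15 lies at chr4:18125807-18126056 (plus strand), SAUR19 at chr5:5963406-5963655 (minus strand) and SAUR22 at chr5:5975088-5975337 (minus strand). IAA6 lies at chr1:19673653-19673902 (minus strand), IAA19 at chr3:5263751-5264000 (plus strand), YUC8 at chr4:14192319-14192568 (plus strand) and EXPA11 at chr1:6999840-7000089 (minus strand). These 7 were picked because they hold a marked hexamer.
SAUR15: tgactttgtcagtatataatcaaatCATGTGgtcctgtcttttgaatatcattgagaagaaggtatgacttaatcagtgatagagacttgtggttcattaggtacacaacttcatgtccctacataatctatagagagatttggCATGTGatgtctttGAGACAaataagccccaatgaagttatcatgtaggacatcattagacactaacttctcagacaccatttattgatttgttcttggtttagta
SAUR19: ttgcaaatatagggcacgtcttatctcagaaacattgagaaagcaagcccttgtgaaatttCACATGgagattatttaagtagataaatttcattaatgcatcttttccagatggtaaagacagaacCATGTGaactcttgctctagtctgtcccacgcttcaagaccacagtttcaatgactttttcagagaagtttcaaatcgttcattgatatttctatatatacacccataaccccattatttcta
SAUR22: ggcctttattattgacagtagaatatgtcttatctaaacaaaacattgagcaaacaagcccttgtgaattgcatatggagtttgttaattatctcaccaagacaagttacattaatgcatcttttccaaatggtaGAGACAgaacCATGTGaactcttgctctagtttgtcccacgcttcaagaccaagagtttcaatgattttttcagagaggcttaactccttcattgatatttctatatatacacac
IAA6: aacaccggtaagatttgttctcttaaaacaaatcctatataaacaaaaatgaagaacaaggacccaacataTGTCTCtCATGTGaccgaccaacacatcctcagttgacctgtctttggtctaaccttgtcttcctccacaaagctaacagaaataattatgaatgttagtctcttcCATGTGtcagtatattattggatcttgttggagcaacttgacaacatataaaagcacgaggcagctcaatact
IAA19: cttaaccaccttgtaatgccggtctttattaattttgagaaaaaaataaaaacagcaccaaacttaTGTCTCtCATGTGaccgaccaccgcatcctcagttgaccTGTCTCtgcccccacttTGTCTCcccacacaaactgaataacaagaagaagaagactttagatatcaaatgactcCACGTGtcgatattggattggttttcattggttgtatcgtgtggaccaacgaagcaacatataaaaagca
YUC8: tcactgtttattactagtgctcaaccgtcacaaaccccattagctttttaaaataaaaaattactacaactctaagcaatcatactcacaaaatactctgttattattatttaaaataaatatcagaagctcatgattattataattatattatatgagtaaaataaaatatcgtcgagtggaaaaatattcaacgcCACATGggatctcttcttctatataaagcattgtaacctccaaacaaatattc
EXPA11: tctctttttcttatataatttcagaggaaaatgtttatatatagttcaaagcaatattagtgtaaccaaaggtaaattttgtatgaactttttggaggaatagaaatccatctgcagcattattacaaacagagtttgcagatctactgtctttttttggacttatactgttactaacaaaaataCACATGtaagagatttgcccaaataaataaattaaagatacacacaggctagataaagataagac

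In SAUR19 the PBE-box hexamers begin 189 and 123 bases before the start, and in SAUR22 the single one begins 105 bases before it. The SAUR19 and SAUR22 windows share a run of 30 identical bases that holds that hexamer. IAA6 and IAA19 share a run of 23 identical bases in which TGTCTC is followed, after 1 base, by CATGTG, beginning 179 bases before the start in IAA6 and 184 in IAA19. Over all 150 genes the PBE-box, searched on both strands, was present in 43 windows, or 28.7%. It was present in 12.9% of the windows of 4228 qualifying genes below the limit and in 11.2% of all 33054 annotated windows. The 15 SAUR members held it in 11 windows (73.3%) and the 135 other members in 32 (23.7%), while 12 of 37 SAUR genes outside the 150 with the required Col-0 mean held it (32.4%). TGTCTC was in 27 windows (18.0%), against 10.95% of the qualifying genes below the limit and 11.01% of all windows. The G-box was in 7 windows (4.67%), against 7.47% and 5.86%. The other auxin element, TGTCGG, was in 10 windows (6.67%), against 5.51% and 4.09%, and TATAAA on the gene strand in 48 (32.0%), against 33.9% and 31.7%. Neighbouring SAUR genes share sequence, so their windows are not independent, and a match is a run of letters and not a measured binding site.

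Across the 150 genes the median difference from Col-0 was -4.29 in ada2b-c on the log2 scale, while the ada2b-cada2a median was -1.91 and the ada2b-cspc median -2.05. The median gain over ada2b-c was 2.33 in ada2b-cada2a, with a range of 1.76 to 5.87, and 2.3 in ada2b-cspc, with a range of 1.75 to 5.78. Among the qualifying genes below the limit the median gains were 0.46 and 0.32, and among all genes with the required Col-0 mean they were 0 and -0.02. Most of the 150 were thus only partly back at the wild-type level: the median gain was 54.9% of the log2 loss in ada2b-cada2a (quartiles 44.4% and 73.7%) and 53.1% in ada2b-cspc (quartiles 45.3% and 68.4%). In 105 genes both double mutants were still 1 or more below Col-0, and in 67 of them 2 or more below. In 23 genes both were no more than 0.5 below Col-0 or were above it, including 10 in which both were at least 0.5 above it, and the other 22 fell in neither class. Transcript length moved with genotype, as described below. With the trend over length and GC content subtracted from each library, the medians were -1.12 in ada2b-cada2a and -1.15 in ada2b-cspc. Then 78 genes were 1 or more below Col-0 in both double mutants, 39 were 2 or more below, and 46 were no more than 0.5 below or were above. On both scales the name given to the set, restored in double mutants, holds in full for a minority of its genes.

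**Figure D1:**
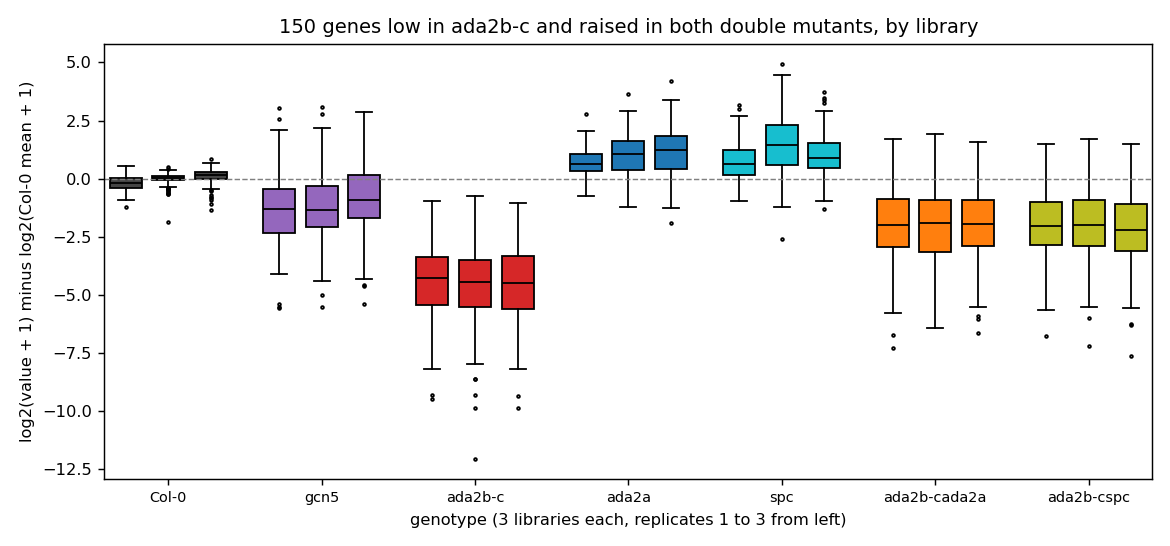
Each box shows the 150 genes in 1 library, with the log2 difference from the Col-0 mean on the vertical axis and the 21 libraries grouped by genotype on the horizontal axis. Boxes span the quartiles, the inner line is the median, whiskers reach the last gene within 1.5 box lengths and dots are genes beyond them. Library medians lie between -4.48 and -4.26 in ada2b-c and between -2.23 and -1.90 in the double mutants.

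The libraries of a genotype stood close together. Library medians of the 150 genes were -4.26, -4.46 and -4.48 in ada2b-c, -1.98, -1.90 and -1.95 in ada2b-cada2a, and -2.03, -1.99 and -2.23 in ada2b-cspc. In Col-0 they were -0.19, 0.03 and 0.14, and in gcn5 -1.32, -1.33 and -0.90. The single mutants spread more, with 0.62, 1.07 and 1.24 in ada2a and 0.61, 1.43 and 0.89 in spc. All 3 ada2b-cada2a libraries exceeded all 3 ada2b-c libraries in 140 genes, and all ada2b-cspc libraries did so in 147. Over all 23290 genes tested that share was 26.7% and 23.5%, but the choice of the genes fixes the direction and nothing is read from these counts. Relative to Col-0, 121 and 123 genes had all libraries of ada2b-cada2a and of ada2b-cspc below all wild-type libraries (38.6% and 40.0% of all genes tested). The rule asked only that ada2a and spc not fall by more than 0.5, and 62 genes were at least 1 above Col-0 in both. The median was 1.02 in ada2a and 0.98 in spc, and 28 genes stayed within 0.5 of Col-0 in both. With length and GC content corrected these medians were 0.49 and 0.56, 25 genes were at least 1 above Col-0 in both and 36 within 0.5 in both, and 129 of the 150 still met the lower limit of -0.5 in both.

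When the genes were chosen again without the libraries of replicate 1, 2 or 3 of every genotype, 113, 115 and 117 of the 150 were chosen again. In the left-out libraries, which had no part in that choice, the median gain of the newly chosen genes was 2.13, 2.25 and 2.21 in ada2b-cada2a and 2.05, 2.2 and 2.01 in ada2b-cspc. The median gain of all genes with the required Col-0 mean lay between -0.03 and 0.03 in those libraries. That wider set includes genes not low in ada2b-c. Over all libraries the qualifying genes below the limit had median gains of 0.46 and 0.32. Whether the left-out libraries came from other plants is not known, so they may not be independent of the rest. At the limit, AT3G28420 (gains of 2.36 and 1.76), AT3G46880 (2.01 and 1.76) and AT3G06868 (1.76 and 1.75) were the last taken. DREB26 (2.24 and 1.75), AT1G70985 (1.75 and 1.92) and RXF26 (3.20 and 1.73) were the first left out, so the limit separates nothing by itself.

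**Figure D2:**
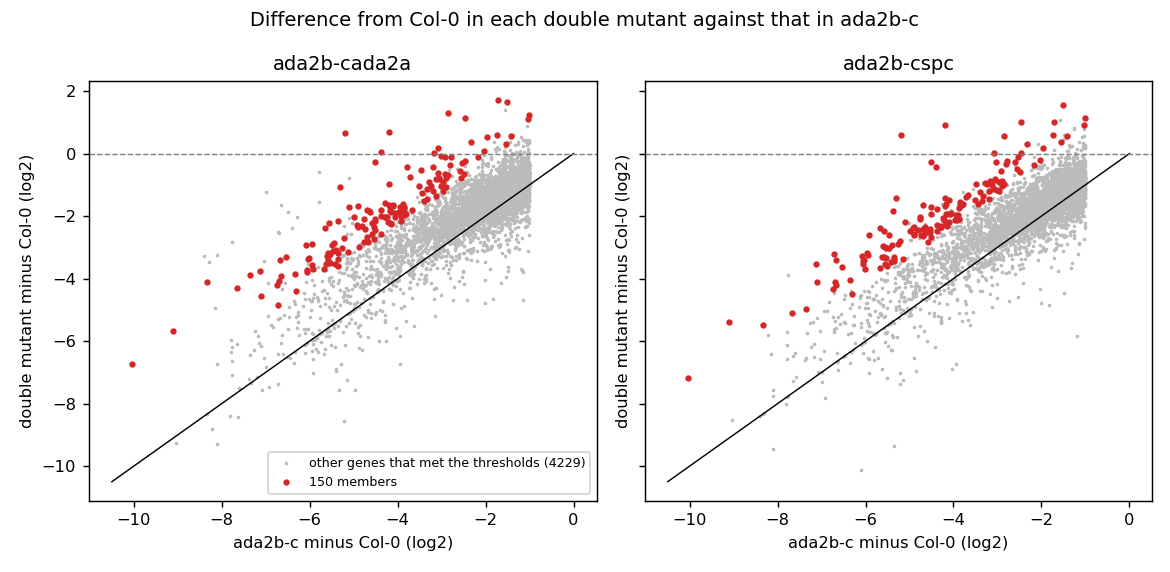
The log2 difference from Col-0 in ada2b-cada2a (left) and ada2b-cspc (right) is plotted against that in ada2b-c, with the 150 genes in red, the 4229 qualifying genes below the limit in grey, and the solid line marking equal values. Red points lie above the line by the choice of the genes, and most lie below the dashed line at the Col-0 level.

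Several facts of the whole series bear on these values. The deposited values are adjusted by the authors and carry no read depth, and they sum to between 27411448 and 58700421 per library. ADA2A had 77.9, 80.5 and 42.3 in Col-0, 20.4, 18.0 and 57.4 in ada2a, 7.35, 1.49 and 1.60 in ada2b-cada2a, and 779, 847 and 822 in ada2b-c. The library labelled ada2a replicate 3 thus lay within the Col-0 range for the gene its mutation is named after. When the genes were chosen again without that library, 148 of the 150 were chosen again. GCN5 (listed as HAG1) had 290, 275 and 260 in gcn5 against 429, 332 and 353 in Col-0, and ADA2B had 615, 567 and 568 in ada2b-c against 737, 403 and 341, so neither transcript was absent from its mutant. Transcript length moved with genotype. Each log2 value was taken relative to the gene's mean over all libraries, and its slope on log2 length was computed per library. That slope was 0.97 to 1.06 in ada2b-c, 0.69 to 0.95 in the double mutants, -0.63 to -0.22 in Col-0 and -1.49 to -0.75 in ada2a and spc. It compares libraries with each other, and its sign does not say whether long genes have higher values within a library. The 150 genes are short, with a median transcript of 1118 bases against 1739 for all genes with the required Col-0 mean, and 59 are under 1000 bases. With the trend over length and GC content subtracted from each library, 140 were still at -1 or lower in ada2b-c, and all 150 kept gains of at least 1 in both double mutants. The corrected medians were -3.25 in ada2b-c and 2.13 and 2.09 for the gains, while 35 and 43 genes were at least 1 above Col-0 in ada2a and spc after the correction. The side of Col-0 on which a gene lay turned with the correction for 42 genes in ada2a and 33 in spc, and for 24 genes in ada2b-cada2a and 22 in ada2b-cspc. With all libraries scaled to the same total, the median of all genes with the required Col-0 mean moved from -0.12 to 0.42 in ada2b-c, and that of the 150 moved from -4.29 to -3.84. The seed storage markers summed to 3.36 or less in every library, and flower markers were present, as given below. In such bulk samples, fewer cells of a type and less RNA per cell cannot be told apart.

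Auxin synthesis was represented by 2 YUC genes of the 5 with the required Col-0 mean. YUC8 had normalised values of 193, 174 and 134 in Col-0, 4.24, 7.27 and 1.40 in ada2b-c, 35.5, 45.0 and 40.1 in ada2b-cada2a, and 36.0, 37.4 and 13.4 in ada2b-cspc. The double mutants lay above every ada2b-c library and below every Col-0 library. In ada2a (252, 222 and 225) and spc (221, 172 and 249) YUC8 was near the wild type. YUC9 differed from Col-0 by -4.70 in ada2b-c, and by -1.81 and -1.65 in ada2b-cada2a and ada2b-cspc.

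Of 26 Aux/IAA genes with the required Col-0 mean, 18 met the thresholds and 6 were among the 150: IAA1, IAA5, IAA6, IAA14, IAA19 and IAA29. IAA29, ranked 9, had 1920, 2648 and 3116 in Col-0, 23.9, 11.4 and 16.8 in ada2b-c, 181, 163 and 218 in ada2b-cada2a, and 171, 226 and 271 in ada2b-cspc. The 4 groups did not overlap except for the double mutants with each other, and both double mutants stayed more than 3 log2 units below the wild type. IAA29 was at 3338, 3930 and 4636 in ada2a and at 2231, 4481 and 2758 in spc, within or above the Col-0 range, but its differences of 0.63 and 0.30 there became -0.06 and -0.58 with length and GC content corrected. IAA19 showed the same order at a smaller distance, with 1149, 1056 and 1370 in Col-0, 53.8, 67.8 and 64.1 in ada2b-c, 270, 273 and 326 in ada2b-cada2a and 291, 324 and 231 in ada2b-cspc. IAA6 was almost without signal in ada2b-c (1.57, 0 and 0) and reached 2.76, 11.7 and 9.45 in ada2b-cada2a and 20.9, 2.25 and 9.95 in ada2b-cspc, against 160, 218 and 247 in Col-0. At levels this low the log2 gain of IAA6 depends on the pseudocount of 1.

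SAUR genes were the largest family, with 15 of the 52 that had the required Col-0 mean, 45 of which met the thresholds. Their median difference from Col-0 was -5.14 in ada2b-c, -3.11 in ada2b-cada2a, -3.03 in ada2b-cspc, 1.19 in ada2a and 0.85 in spc. With length and GC content corrected these medians were -3.03, -1.43, -1.43, -0.20 and -0.69 in the same order. All 15 lay above Col-0 in ada2a and in spc before the correction, and 0 and 1 did after it. SAUR22 had 889, 1133 and 1144 in Col-0, 9.76, 9.98 and 16.3 in ada2b-c, 60.2, 91.7 and 66.5 in ada2b-cada2a, and 51.1, 89.0 and 48.3 in ada2b-cspc. Each double mutant was above all ada2b-c libraries and far below all Col-0 libraries. In ada2a SAUR22 was at 1354, 2198 and 2812, above all Col-0 libraries, and in spc at 882, 2792 and 1556, overlapping them. The corrected differences of SAUR22 were -0.20 in ada2a and -0.66 in spc, against 1.01 and 0.72 as deposited. SAUR15, an auxin-induced member of another subgroup, had 270, 406 and 410 in Col-0, 25.8, 12.8 and 29.9 in ada2b-c, 91.6, 63.4 and 88.9 in ada2b-cada2a and 81.6, 87.0 and 75.5 in ada2b-cspc. Among all 52 SAUR genes the medians were -3.56 in ada2b-c and -2.21 and -2.37 in the double mutants.

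The 6 genes SAUR19, SAUR20, AT5G18030, SAUR22, SAUR23 and SAUR24 form 1 run of 21536 bases at chr5:5962773-5984308. Of the protein-coding genes between them, AT5G18037 was listed at 0 in Col-0 and ada2b-c, and AT5G18040, AT5G18065 and DRT101 did not have the low ada2b-c level: AT5G18040 was at 272 in Col-0 and 555 in ada2b-c, AT5G18065 at 147 and 157, and DRT101 at 342 and 465 (means of 3 libraries). The non-coding RNA AT5G02865, inside the run and not among the 150, did have it, with means of 94.8 in Col-0, 2.59 in ada2b-c and 14.5 and 15.8 in the double mutants. A run of 3 SAUR genes, AT1G29430, AT1G29450 and AT1G29460, lies at chr1:10302585-10308246, and AT4G34770 and AT4G34790 are also neighbours. These SAUR genes resemble each other in sequence and how the authors' counting shared reads between near copies is not given, so the value of a single copy is uncertain.

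Among the growth regulators were 3 of the 4 PRE genes with the required Col-0 mean, small helix-loop-helix proteins that promote cell elongation. PRE1 had 878, 1195 and 1444 in Col-0, 15.2, 30.6 and 27.3 in ada2b-c, 128, 108 and 141 in ada2b-cada2a, and 124, 116 and 103 in ada2b-cspc. KDR had 1111, 1445 and 1583 in Col-0, 164, 163 and 168 in ada2b-c, 844, 740 and 792 in ada2b-cada2a and 750, 834 and 708 in ada2b-cspc. In the deposited values KDR thus differed from the wild type by -0.80 and -0.85 in the double mutants, whereas PRE1 stayed 3.21 and 3.35 below it. With length and GC content corrected the 2 KDR differences became 0.55 and 0.54. ARGOS, a regulator of organ size, differed by -3.86 in ada2b-c and by -1.70 and -1.60 in the double mutants. ROT4, which encodes a small peptide of the DVL family, differed by -5.42, -3.54 and -3.47 and stood above Col-0 in ada2a (1.94) and spc (2.35). GASA6, a gibberellin-regulated peptide gene, had 6420, 9045 and 12053 in Col-0, 217, 197 and 236 in ada2b-c, 1066, 1090 and 1076 in ada2b-cada2a and 1237, 1215 and 1131 in ada2b-cspc. Its single-mutant libraries all exceeded those of Col-0, at 17803 to 27399 in ada2a and 13139 to 35918 in spc, but the differences of 1.31 and 1.25 became -0.11 and -0.35 with length and GC content corrected. CKX4, a cytokinin-degrading oxidase, differed by -5.22 in ada2b-c and by -2.70 and -2.80 in the double mutants. CYP94B3, which inactivates the jasmonate hormone, differed by -5.58, -3.18 and -2.48.

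The cell wall enzymes differed in how far they came back. XTH15, ranked 4, had 373, 519 and 544 in Col-0, 19.0, 25.9 and 20.8 in ada2b-c, 500, 585 and 402 in ada2b-cada2a and 384, 396 and 279 in ada2b-cspc. Its ada2b-cada2a libraries overlapped the wild type, as did 2 of 3 ada2b-cspc libraries. EXPA8 had 5622, 7423 and 7172 in Col-0, 142, 105 and 157 in ada2b-c, 547, 579 and 599 in ada2b-cada2a and 730, 720 and 575 in ada2b-cspc, and so remained 3.55 and 3.32 log2 units below Col-0. XTH33 differed from Col-0 by -0.09 and -0.38 in the double mutants (0.30 and 0.05 with length and GC content corrected) and XTH8 2.19 and 2.13 below it. EXPA11 (-5.35 in ada2b-c, -3.39 and -3.45 in the double mutants), CEL2, a cellulase (-4.64, -1.88 and -2.35), the pectate lyase AT1G67750 (-4.07, -2.01 and -1.93) and the pectin methylesterase inhibitor AT5G20740 (-6.05, -3.79 and -3.43) made up the other wall genes named.

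**Figure D3:**
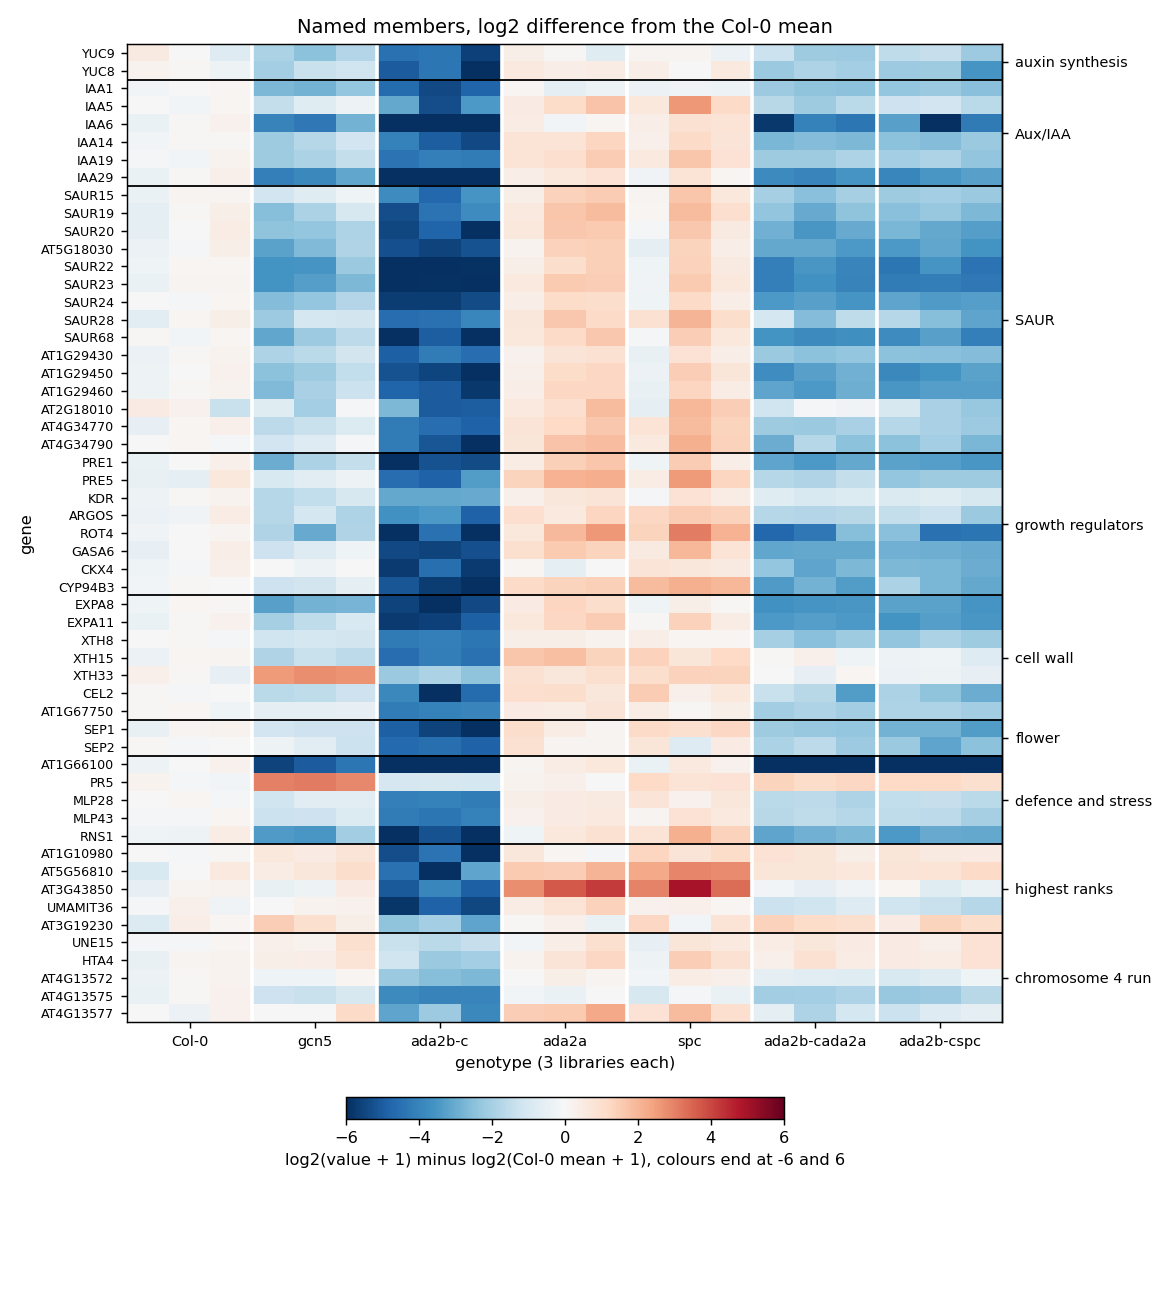
Colour gives the log2 difference from the Col-0 mean for the named genes (vertical axis, grouped by role) in 21 libraries (horizontal axis, grouped by genotype, 3 each), with blue below and red above. The ada2b-c columns are dark blue in nearly all genes and the double mutants are lighter. In the double mutants AT1G10980, AT5G56810, AT3G43850, XTH15, XTH33, PR5, UNE15 and HTA4 are near or above Col-0. Values are as deposited, and with length and GC content corrected UNE15 lies below Col-0 in both double mutants.

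The genes ranked 1 to 5 are those whose smaller gain was largest, and rank does not measure how near a gene came to Col-0. AT1G10980, ranked 1, encodes a protein of the lung seven-transmembrane receptor family. It had 92.9, 90.0 and 96.4 in Col-0, 1.38, 3.3 and 0 in ada2b-c, 169, 157 and 120 in ada2b-cada2a and 153, 134 and 133 in ada2b-cspc. Every double-mutant library was above every Col-0 library. AT5G56810, an F-box protein gene ranked 2, differed by -4.20 in ada2b-c and by 0.70 and 0.92 in the double mutants. AT3G43850, of unknown function and ranked 3, had 52.4, 84.1 and 86.3 in Col-0, 1.28, 4.06 and 1.52 in ada2b-c, 65.2, 52.9 and 64.9 in ada2b-cada2a and 81.3, 44.4 and 57.0 in ada2b-cspc. Its differences of -0.28 in both double mutants became 1.24 and 1.28 with length and GC content corrected, and it was far above Col-0 in ada2a (514 to 1400) and spc (592 to 2317). UMAMIT36, a predicted membrane transporter ranked 5, had 295, 396 and 278 in Col-0 and 4.73, 10.4 and 6.34 in ada2b-c. It reached 132, 139 and 191 in ada2b-cada2a and 139, 128 and 97.0 in ada2b-cspc, below every wild-type library. MES18, a methyl esterase ranked 13, had a mean of 113 in Col-0 and 12.5 in ada2b-c, and the double mutants had 128 and 114.

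Of the other genes ranked 6 to 20, AT3G19230 (gains of 3.62 and 3.47), AT3G29633 (4.15 and 3.41) and AT1G65150 (3.17 and 3.08) ended above Col-0 in both double mutants. AT2G34655, AT1G78450, AT4G22755, AT3G04300, AT3G28500, AT5G22430, AT1G52750 and the MADS-box gene AGL87 stayed at least 1.71 below it in both. AT3G04300 was listed at or near 0 in ada2b-c, so its gain has no fold. Ranked 18, the thionin gene AT1G66100, which encodes an antimicrobial peptide, combined the largest loss with a large remaining deficit. It had 9855, 12524 and 14668 in Col-0, 18.5, 1.88 and 12.1 in ada2b-c, 78.6, 143 and 123 in ada2b-cada2a, and 111, 82.5 and 61.4 in ada2b-cspc.

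PR5, a thaumatin-like defence protein, went past the wild type in both double mutants, while its difference of -1.01 in ada2b-c lay at the limit of -1. It had 1979, 1666 and 1554 in Col-0, 856, 902 and 825 in ada2b-c, 4385, 3744 and 4167 in ada2b-cada2a and 4015, 4022 and 3388 in ada2b-cspc. Among the groups just listed, none overlapped another except the double mutants with each other. PR5 was the only gene of 13 in the salicylic acid defence list to meet the thresholds; PR1 and BGL2 of the same list were higher in ada2b-c (means of 2377 and 6295) than in Col-0 (416 and 968). MLP28 and MLP43, of the major latex protein family, differed from Col-0 by -4.11 and -4.19 in ada2b-c, and by -1.69 to -1.50 in the double mutants. RNS1, a secreted ribonuclease, differed by -5.96 in ada2b-c and by -2.90 and -3.17 in the double mutants.

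SEP1 and SEP2, MADS-box genes of floral organ identity, were the members found among 7 flower markers. SEP1 had 86.6, 131 and 137 in Col-0, 3.05, 1.54 and 0 in ada2b-c, 26.4, 23.6 and 23.0 in ada2b-cada2a and 15.6, 15.8 and 10.6 in ada2b-cspc. All 7 flower markers met the thresholds. Their summed value was 995 to 1282 in Col-0, 80.8 to 93.8 in ada2b-c, 263 to 286 in ada2b-cada2a, 169 to 193 in ada2b-cspc, 494 to 683 in gcn5, 2217 to 2342 in ada2a and 2586 to 2781 in spc. AG, which specifies stamens and carpels, was listed at or near 0 in ada2b-c. The flower sum was thus lowest in ada2b-c, higher in both double mutants and highest in ada2a and spc. The medians of the 150 genes had the same order, although spc stood above ada2a only in the flower sum. The thresholds set the low ada2b-c level and the lower limit in ada2a and spc for both, so nothing is read from this likeness. The 6 aquaporin genes, none of them a member, also had this order. Their means summed to 17630 in ada2b-c, 35350 and 29817 in ada2b-cada2a and ada2b-cspc, 459360 in ada2a and 408856 in spc. The 7 meristem markers, none of them a member, summed to 1090 to 1382 in Col-0, 531 to 583 in ada2b-c, 808 to 937 in ada2b-cada2a, 804 to 904 in ada2b-cspc, 1158 to 1618 in gcn5 and 2602 to 4302 in ada2a and spc. The 7 tapetum markers summed to 715 to 894 in Col-0, 526 to 589 in ada2b-c, 392 to 429 in ada2b-cada2a, 296 to 452 in ada2b-cspc, 1350 to 1699 in gcn5 and 946 to 2130 in ada2a and spc. Of these 7, 5 had a mean under 1 in ada2b-c and in ada2b-cspc and 0 in ada2b-cada2a. The part of floral, meristem or tapetum tissue in the medians was not tested.

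Photosynthesis and cold genes met the thresholds without entering the set. Of 15 light-harvesting genes 10 qualified, of 19 photosystem and carbon fixation genes 14 and of 13 cold response genes 9, and none of these was among the 150. LHCB2.1 differed by -7.04 in ada2b-c with gains of 0.50 and 0.48, and COR15A, a chloroplast cold-protection gene, by -5.10 with gains of 1.59 and 0.83. The light-harvesting genes together summed to 5058110 to 5543860 in Col-0, 404360 to 430927 in ada2b-c and 533816 to 888647 in the double mutants. Of the 14 auxin response genes 12 met the thresholds and 11 were members, and of 10 cell wall loosening genes 9 met them and 2 were members. IAA2 was the auxin gene that qualified without being taken (gains of 0.67 and 0.71). GH3.3 and WES1, auxin-conjugating enzymes of the same list, were instead higher in ada2b-c, by 4.80 and 3.57. The lists were picked with earlier results of these data known, so nothing is read from such shares. Of the 11 auxin members, 6 lie in 1 run of neighbouring SAUR genes. By family, members were 15 of 52 SAUR, 6 of 26 Aux/IAA, 2 of 19 expansin and 3 of 24 XTH genes with the required Col-0 mean. Remaining lists, among them jasmonate, glucosinolate, flavonoid, cuticle, aquaporin, clock, iron and cell division genes, held no member. These lists do not cover whole pathways, and CYP94B3, named above, is a jasmonate gene among the 150 but outside the list.

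Some of the 150 are neighbours on the chromosome. With a gap of at most 10000 bases, 24 of them form 8 runs, and the members are spread over the chromosomes as 48, 17, 30, 25 and 30 genes from chromosome 1 to 5. A run of 5 lies at chr4:7879558-7898499 over 18942 bases and holds UNE15, a late embryogenesis abundant protein gene, HTA4, a histone H2A gene, and AT4G13572, AT4G13575 and AT4G13577, which encode no characterised protein. UNE15 had 954, 941 and 1062 in Col-0, 391, 325 and 381 in ada2b-c, 1339, 1588 and 1396 in ada2b-cada2a and 1383, 1206 and 1820 in ada2b-cspc, so that the double mutants exceeded the wild type in the deposited values. With length and GC content corrected UNE15 was instead below it, with differences of -0.60 and -0.73 against 0.55 and 0.58. HTA4 had 299, 459 and 484 in Col-0, 180, 87.6 and 99.9 in ada2b-c, 508, 789 and 566 in ada2b-cada2a and 590, 558 and 745 in ada2b-cspc. AT4G13575 had 2049, 2891 and 3262 in Col-0, 191, 170 and 177 in ada2b-c, 651, 656 and 756 in ada2b-cada2a and 573, 599 and 872 in ada2b-cspc, and stayed below the wild type.

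The flanking genes did not share the pattern of the run. AT4G13550 on the left had a mean of 242 in Col-0 and 808 in ada2b-c, and AT4G13590 on the right 2711 and 1882. Inside the run, AT4G06115, at 71.0 in Col-0 and 8.79 in ada2b-c, was also higher in the double mutants, at 39.4 and 66.4, but missed the threshold in ada2a and spc, where it differed by -1.03 and -1.07. With length and GC content corrected, the difference of HTA4 in ada2b-c went from -1.75 to -0.06 and that in ada2b-cada2a from 0.58 to 1.98, while AT4G13575 kept -4.12 and -2.38. AT4G13572 and AT4G13577, below Col-0 in both double mutants as deposited, were above it after the correction, by 0.53 and 0.70 and by 0.44 and 0.71. The microRNA gene MIR841a lies within HTA4 on the other strand, and the strandedness of the counting is not given, so their reads cannot be told apart.

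**Figure D4:**
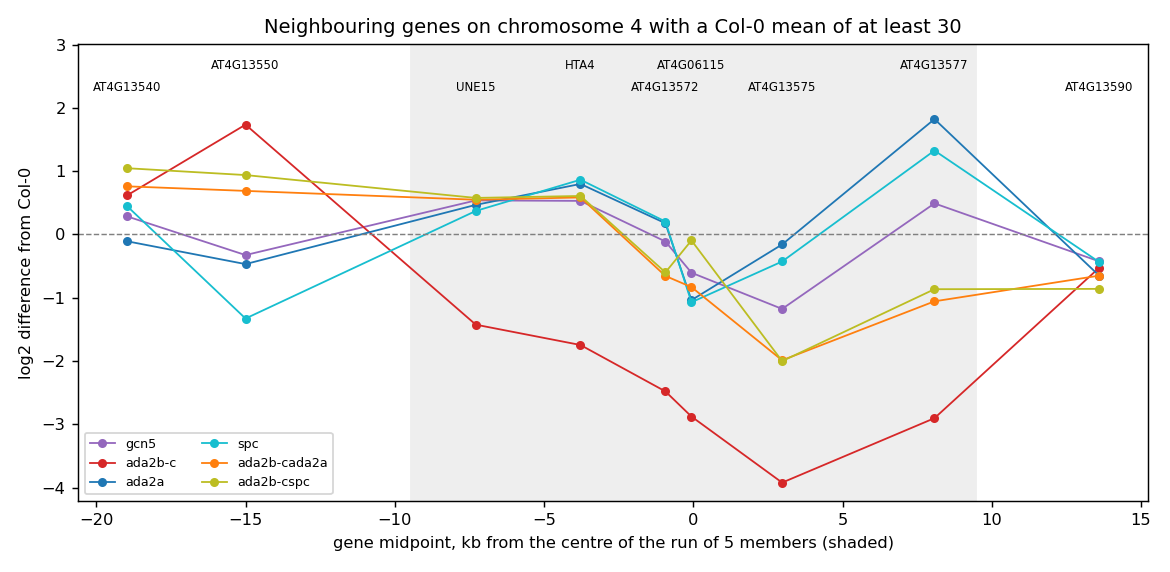
The log2 difference from Col-0 (vertical axis) is shown for 9 neighbouring genes with a Col-0 mean of at least 30, placed by distance in kb from the centre of the run of 5 (shaded), with 1 line per mutant. In these deposited values the ada2b-c line lies below all the others at all 6 genes inside the shaded run and not at the genes on either side. With length and GC content corrected this does not hold at HTA4 and AT4G06115, where ada2a and spc lie lower than ada2b-c.

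The gcn5 mutant took no part in the choice, so its difference from Col-0 could be tested, although the same Col-0 libraries helped to choose the genes. Of the 150, 85 were lower in gcn5 and 9 higher at an adjusted p under 0.05 (limma on log2(value + 1) with Benjamini-Hochberg adjustment over all 23290 genes tested). That is 56.7% lower, where 18.7% of all genes tested and 44.6% of the qualifying genes below the limit were lower, and 6.0% higher, where 15.6% and 2.27% were. The median difference was -1.19, against -0.58 in the qualifying genes below the limit and -0.0047 in all genes with the required Col-0 mean. All 3 gcn5 libraries were below all Col-0 libraries in 95 genes (24.4% of all genes tested) and above them in 15 (17.4%). The gcn5 mean exceeded the ada2b-c mean in all 150 genes and lay between ada2b-c and Col-0 in 116. It was above both double mutants in 120 and below both in 17. The rule used ada2b-c, Col-0 and the double mutants, so these counts are a description and nothing is read from them.

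**Figure D5:**
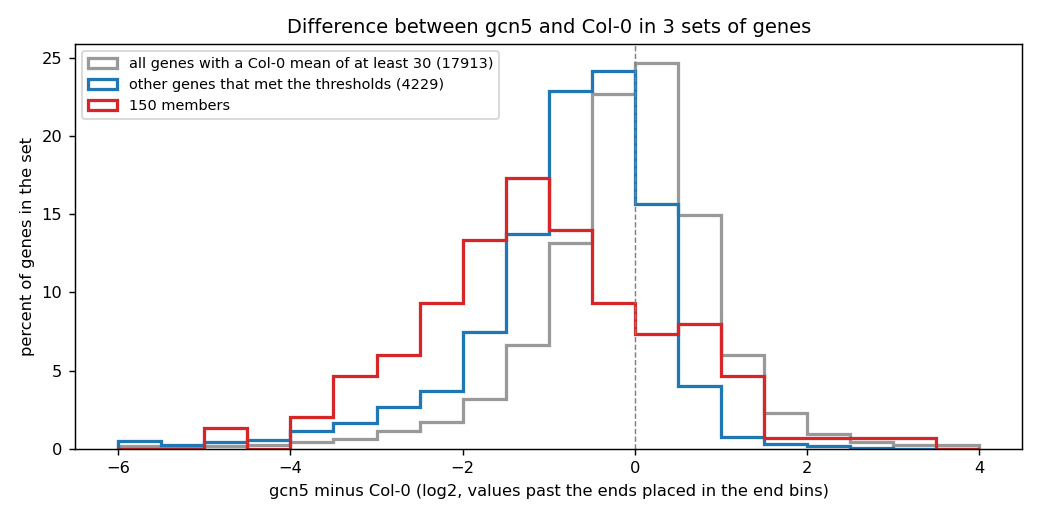
The histogram gives the percent of genes (vertical axis) by log2 difference between gcn5 and Col-0 (horizontal axis, bins of 0.5) for the 150 genes, the 4229 qualifying genes below the limit and the 17913 genes with the required Col-0 mean. The 150 centre at -1.19 and the qualifying genes below the limit at -0.58. At 1 or more lie 11 of the 150, 52 of the 4229 and 1824 of the 17913.

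Most auxin genes among the 150 fell in gcn5. All 12 SAUR genes that were called were lower, the exceptions to a call being SAUR15, AT2G18010 and AT4G34790, and 5 of 6 Aux/IAA genes, both YUC genes, both expansins and 2 of 3 PRE genes were lower. Among all genes of these families with the required Col-0 mean, 25 of 52 SAUR genes were lower and 6 higher, and 18 of 26 Aux/IAA, 3 of 5 YUC, 13 of 19 expansin and 3 of 4 PRE genes were lower. In the same comparison 3 of 7 flower markers fell and 4 of 7 tapetum markers rose, and their part in the result was not tested. IAA29 had 149, 175 and 297 in gcn5 and fell by 3.66 ± 0.31 on the log2 scale (SE, limma adjusted p = 1.56e-08), lower in 3 of 3 libraries. IAA6 fell by 3.70 ± 0.60 (limma adjusted p = 6.34e-05), and SAUR22 fell by 3.11 ± 0.41 (limma adjusted p = 5.79e-06), with 86.9, 90.0 and 224 in gcn5. EXPA8, at 707, 930 and 973 in gcn5, fell by 2.96 ± 0.21 (limma adjusted p = 1.91e-09). In the auxin response list as a whole 11 of 14 genes fell and GH3.3 and WES1 rose. In the cell wall loosening list 7 of 10 fell and XTH4 rose. Both lists were picked with earlier results of these data known.

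The thionin gene AT1G66100 had 261, 384 and 613 in gcn5 and fell by 4.95 ± 0.48 (limma adjusted p = 1.26e-07). Among the 8 largest falls were also AT1G18990, a putative myosin-binding protein gene (-4.99), AT5G02580 (-4.06), the glycosyltransferase AT5G05890 (-3.55), AT5G24580, a heavy metal transport family gene (-3.44), and the remorin AT1G67590 (-3.44). AT1G18990 was about as low in gcn5 as in ada2b-c, with differences of the means of -4.77 and -4.89. By contrast CKX4 (-0.08, limma adjusted p = 0.87), UMAMIT36 (0.16, limma adjusted p = 0.694) and AT3G43850 (-0.07, limma adjusted p = 0.934) did not pass the test although each was more than 4 log2 units down in ada2b-c. Their gcn5 libraries overlapped those of Col-0.

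Genes higher in gcn5 than in Col-0 were few. PR5 had 14328, 14858 and 12827 in gcn5 and rose by 3.02 ± 0.15 (limma adjusted p = 9.17e-12), as did 12 of the 13 salicylic acid defence genes. XTH33, at 605, 691 and 663 in gcn5 against 126, 105 and 71.1 in Col-0, rose by 2.72 ± 0.25 (limma adjusted p = 5.96e-08). The others were AT1G65150, a TRAF-like family gene (2.29), AT1G14250, a nucleoside phosphatase family gene (1.46), AT5G06190 (1.42), AT4G04223, a non-coding RNA (1.23), the drought-induced gene DI21 (1.07), the receptor-like kinase AT5G45840 (1.0) and the carboxypeptidase-like SCPL51 (0.70). In both double mutants PR5, AT1G65150, AT1G14250, AT5G06190, AT4G04223 and DI21 were also above Col-0, and XTH33, AT5G45840 and SCPL51 were below it. With length and GC content corrected XTH33 was above Col-0 in both and SCPL51 in ada2b-cada2a (0.08).

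The rule ranked genes by the smaller of the 2 gains and so favoured genes with a large gain in both double mutants. The values of the double mutants against each other are therefore a description, and nothing is read from their likeness. The gains differed by less than 0.5 in 130 of the 150 (86.7%), in 85.2% of the qualifying genes below the limit and in 91.6% of all genes with the required Col-0 mean. The median absolute difference was 0.23, 0.22 and 0.16 in the same order. In limma, ada2b-cspc against ada2b-cada2a gave no call among the 150 (10 at an unadjusted p under 0.05), where 0.468% of all genes tested were called. AT5G45840 was at 305 in ada2b-cspc and 523 in ada2b-cada2a (means of 3 libraries). AT5G22430, an extensin-related protein gene, had means of 48.2 and 125. The widest gap between the gains was 1.64, for the non-coding RNA AT5G38005, which is at 2.62 in ada2b-cada2a and 10.3 in ada2b-cspc and thus near the pseudocount. A missed threshold with 3 libraries a group does not show equal levels.

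The values of ada2a and spc also entered the rule, through the lower limit on both, so their difference is described in the same way. In limma 4 of the 150 were called between them (2.67%), where 1.03% of all genes tested were, and nothing is read from that share. AT1G14250 had means of 2723 in spc and 1043 in ada2a, a difference of 1.40 ± 0.19 (SE) on the log2 scale. AT1G65150 differed by 0.89 ± 0.18. PR5 differed by 0.79 ± 0.15, with 4021, 3029 and 3178 in spc and 2004, 2108 and 1764 in ada2a. These 3 were also among the 9 genes higher in gcn5. EXPA8 differed by -0.89 ± 0.21, with 5660, 8553 and 7121 in spc against 9548, 16505 and 13878. When only these 2 genotypes were fitted the count was 0, without spc replicate 3 it was 2, and without the library labelled ada2a replicate 3 it was 3.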

How the data were processed

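Total RNA of 30-day-old plants was sequenced as 150-bp read pairs, per the labels' protocols. The deposited table gives a signal per gene and library that the authors adjusted in a way not given in the sources used here, and it holds 32548 genes in 21 libraries. The values are not whole numbers, so read depth is unknown and no interval or floor from counts is given. Their number, 3 libraries a genotype, limits the precision. Per the submitters' processing notes the tools were bcl2fastq, HISAT2 and edgeR with the TAIR10 genome. The sources used here name neither versions nor the counting program, its annotation or its strand setting.

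Gene names, positions, transcript lengths and upstream sequence came from RefSeq TAIR10.1, in which all 32548 gene IDs were found. The 23290 genes whose mean across the 21 libraries reached 1, all 150 members among them, were tested. Their values, as log2(value + 1), were fitted with a mean for each genotype and a variance trend (limma 3.58.1, R 4.3.3). The fold changes on this scale understate the change of low genes. Two-sided p-values received the Benjamini-Hochberg adjustment over all genes tested in each comparison, and calls were made under 0.05. The fit was also run on simulated data with equal spread in all genotypes, which cannot show how it behaves when the spread is unequal. Of 10 comparisons fitted, 1 was read as a test for the members, gcn5 against Col-0. The counts for ada2b-cspc against ada2b-cada2a and spc against ada2a are descriptions, since the rule used those genotypes.

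The members, the 26 gene lists and the motifs were chosen with earlier results of these data known. Genes were named by rank, by list, by family, by the largest called changes with libraries that do not overlap, by their place at the limit of the rule, and up to 20 more for well known functions. Genes beside the members were named where they flank a run or belong to a list. Alternatives left out the filter on low values, set the pseudocount to 0.1, added a replicate block, fitted only the groups compared or set equal column totals. Others were a length and GC correction (a spline trend with 5 degrees of freedom taken from each library), the length slope as a covariate, changes of at least 1, and each library left out. The block within only the groups compared, the replicate left out in every genotype and the alternatives for the medians were added after the data were seen. The plan allowed for a count test if the values had been counts, and it was not used. The plots used matplotlib 3.10.9 (Python 3.11.15).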

Additional observations from a re-analysis of the deposited data

How the results depend on the processing

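The count of 85 members lower in gcn5 ranged from 75 to 94 under the other settings and from 71 to 87 with a library left out. Of the 85 themselves, 75 to 85 kept the call under the other fits and 71 to 82 with a library left out. The count of 9 higher ranged from 6 to 19 under the other settings, with 15 for the length and GC correction and 19 for the length slope as a covariate. It was 7 to 9 with a library left out. Of the 9 themselves, 6 to 9 kept the call under the other fits, and also 6 to 9 with a library left out. For the double mutants the count of 0 became 1 with no filter on low values, 1 with equal column totals, 2 with the length and GC correction, 3 with the slope covariate and 3 with only the groups compared, and 0 to 1 with a library left out (1 without ada2b-cada2a replicate 3). For spc against ada2a the count of 4 became 8 with the correction, 13 with the slope covariate, 0 with only the groups compared and 1 for changes of at least 1, and 2 to 6 with a library left out (2 without spc replicate 3). With only the groups compared, the spread is no longer shared with the other genotypes, whose libraries spread unequally. The cause of the changed counts was not tested. Replicate numbers did not pair the libraries throughout. Deviations of same-numbered libraries from their group means correlated at 0.28, 0.087 and 0.38 for gcn5 and Col-0, -0.035, -0.018 and 0.024 for the double mutants, and 0.40, 0.0037 and -0.042 for spc and ada2a. The same-numbered library of the other group was the best match for gcn5 replicates 1 and 3, ada2b-cspc replicate 3 and spc replicate 1, and not for the rest. With the replicate block the counts were 88 lower and 9 higher for gcn5, 1 for the double mutants and 5 for the single mutants. With the replicate block and only the groups compared they were 94 and 19, 3, and 2.

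The median gain of 2.33 in ada2b-cada2a was 2.47 with a pseudocount of 0.1, 2.24 with equal totals and 2.13 with the length and GC correction, and 2.32 to 2.40 with a library left out. That of 2.3 in ada2b-cspc was 2.45, 2.29 and 2.09 in the same order, and 2.24 to 2.34 with a library left out. The median of -1.19 in gcn5 ranged from -1.29 to -1.06 with a library left out and was -0.95 with equal totals, which moved the median of all genes with the required Col-0 mean from -0.0047 to 0.24. Chosen again, the set shared 116 of its 150 genes with a pseudocount of 0.1, 129 with equal totals, 110 with the correction, and 113 to 148 with libraries left out, fewest of the single libraries without those of ada2b-c (122 to 126). Of the 98 calls of single genes, the replicate block ended none, equal totals 11, only the groups compared 12, and leaving out Col-0 replicate 3 ended 15 of the 94 calls in gcn5. None of these calls and medians changed direction; the number of genes whose side of Col-0 turned with the length and GC correction is given with the results.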
